A study of Mus musculus with 2 samples.

Results

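The collagen chain genes are the genes whose symbol has the form Col, a number, a, a number. A search of the gene symbols found 44 of them among the 55573 genes listed, with antisense, pseudogene and other entries such as Col4a3bp left out. Only the 32601 listed genes with a symbol could be searched. Of the 44 genes, 43 carry such a symbol in the GENCODE vM1 annotation, and Col26a1, listed there as Emid2, was matched through its RefSeq synonym. At least 1 read was counted for 41 of the 44 genes, and 35 genes had at least 10 reads in both libraries together. Ratios are given only for these 35 genes.

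Collagens are the main structural proteins of the extracellular matrix, and each molecule is a helix wound from α-chains that are encoded by separate genes. In the arterial wall, fibrillar collagens made by adventitial fibroblasts and by smooth muscle cells carry tensile load. Type IV collagen forms the network of the basement membranes that lie under the endothelium and around each smooth muscle cell, and type VI collagen links cells to the fibrils around them. Collagen protein turns over slowly in a resting artery, whereas the mRNA of its chains responds to growth factors, stretch and inflammation.

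The libraries were made from mesenteric arteries of wild-type C57BL/6 mice aged 10 weeks, the resistance arteries that feed the intestine. Control arteries were kept in 5 mM K+ and depolarized arteries in 60 mM K+, which depolarizes smooth muscle; the labels give 60 min for both, and each condition has 1 library pooled from 2 mice. By the study's methods, blood was washed out of all arteries, every solution held tetrodotoxin to silence nerves, and connective tissue was dissected away before RNA was extracted. The supplementary methods take control tissue from the far side of a ligature and perfuse the tissue left on the needle with 60 mM K+, so K+ concentration, arterial segment and time in solution cannot be told apart. With 1 library per condition there are no replicates: no test of the conditions was possible, no p-value is given, and every difference below is one between 2 libraries.

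Reads counted on genes were 10480918 in the control and 11289598 in the depolarized library. Log2(fold-change) is the 60 mM K+ over the 5 mM K+ value after scaling by the trimmed mean of M-values (TMM) of edgeR, so that negative values mean fewer reads in 60 mM K+. Beside it stands a 95% exact (Clopper-Pearson) interval, which covers counting error only and no variation between arteries. Where a pair of genes is compared, the 95% interval of their difference is a normal approximation, also for counting error only. FPKM, reads per kilobase of gene model relative to the reads of the library, is used where levels of different genes are compared. Of the smooth muscle markers, Acta2 (187183 and 199779 reads) and Myh11 (154041 and 148394) were abundant in both libraries, whereas Tagln had 314 and 387 reads.

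Collagen mRNA was abundant in the control arteries and took a smaller share of the depolarized library. The 44 genes held 193807 reads in 5 mM K+ (1.85% of the library) and 159528 in 60 mM K+ (1.41%), a log2(fold-change) of the sum of -0.18 (95% interval -0.19 to -0.17). Of the 35 genes with ratios, 31 lay below 0 and 4 above, with a median of -0.25. The same median over all 14829 genes with at least 10 reads was -0.0047, and 50.4% of them lay below 0. With TMM scaling, 4 of 35 collagen genes were lower by more than 1.5-fold, where 13.1% of all genes were, and 1 was higher, where 11.9% were. Past 2-fold, 2 were lower (5.86% of all genes) and 0 were higher (5.54%). Most collagen genes thus differed by less than 1.5-fold, on the lower side for 31 of 35. The counting interval lay below 0 for 21 of 35 genes, where 20.3% of all genes were below, and above 0 for 2 genes, where 25.0% were above. Scaling by total counts shifts all values alike, by -0.21, so that the collagen median lay -0.24 from the median of all genes under either scaling, and 32 in place of 31 genes then lay below 0. The counts of genes past a limit did depend on it. With total counts, 11 of the 35 collagen genes were lower by more than 1.5-fold (21.8% of all genes) and 0 were higher (7.80%), and the interval lay below 0 for 26 (38.4%) and above 0 for 0 (13.6%).

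The number of reads sets how far each gene can be read. Among the 26 collagen genes with at least 200 reads, 24 lay below 0 and the median was -0.26. For 20 of the 26 the counting interval lay below 0 (22.5% of the 9291 genes at that depth) and for 2 it lay above 0 (34.1%). Lower by more than 1.5-fold were 3 of 26 (3.54% of genes at that depth), and higher were 0 (8.41%). The 9 genes with at least 10 but under 200 reads held only 339 and 252 reads in all. Collagen mRNAs are long, and in these libraries longer transcripts had lower values: among genes with at least 200 reads, those with a longest annotated transcript of 6 kb or more had a median log2(fold-change) of -0.15 and those under 2 kb of 0.24. The 14 collagen genes of 6 kb or more had a median of -0.28, and the 11 genes of 4 to 6 kb had -0.26 where all genes of that length had -0.05. Lower by more than 1.5-fold were 2 of these 14 (7.97% of all genes of that length and depth) and 1 of these 11 (3.67%). The part of length in the differences was not tested.

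**Figure D1:**
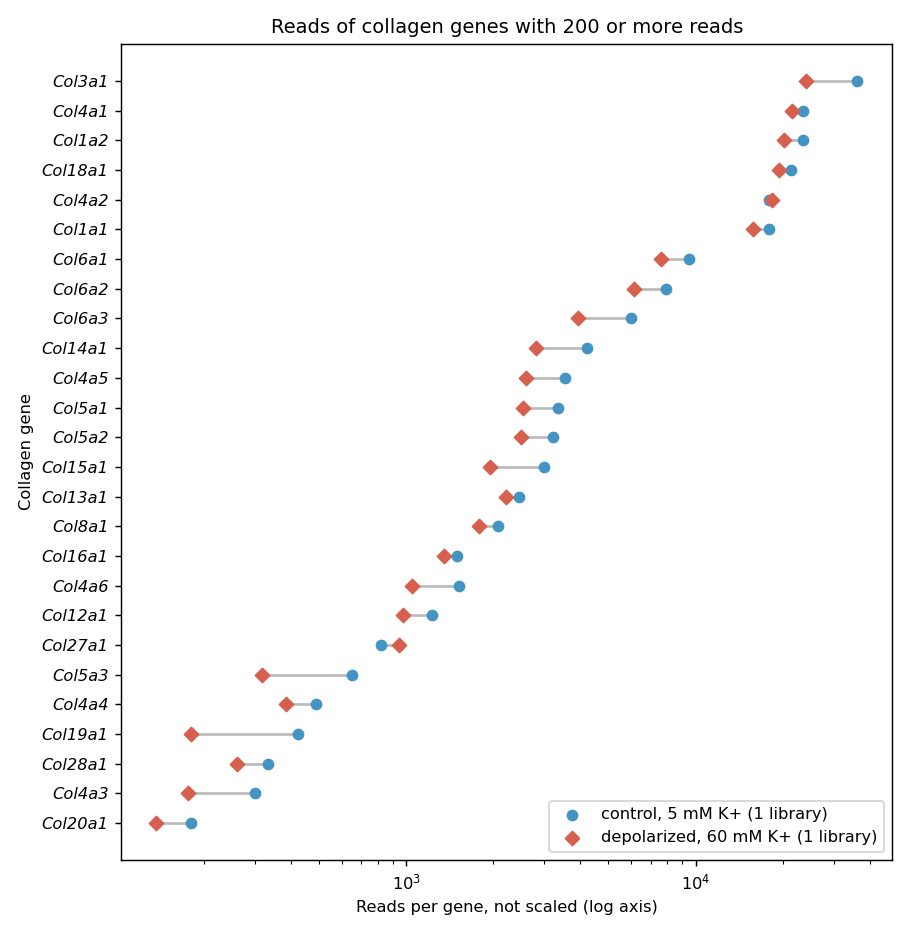
Reads per gene (horizontal log axis, not scaled) for the 26 collagen genes with at least 200 reads, 1 row per gene; circles are the control library and diamonds the depolarized library. The diamond lies to the left of the circle except for Col4a2 and Col27a1, and the gap is widest for Col19a1 (423 and 181 reads) and Col5a3 (649 and 317 reads).

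Fibrillar collagens form the banded fibers of the adventitia and media. They took 44.3% of collagen reads in 5 mM K+ and 41.6% in 60 mM K+. Type I collagen, the main load-bearing fiber, is built from the chains of Col1a1 and Col1a2. Col1a1 (ENSMUSG00000001506, mm9 chromosome 11, 94797538 to 94814356) had 17966 reads in the control and 15839 in 60 mM K+, for a log2(fold-change) of -0.08 (-0.11 to -0.05). Col1a2 had 23529 and 20172 reads, a log2(fold-change) of -0.12 (-0.15 to -0.09). The pair differed by 0.04 in log2(fold-change), with a counting interval (-0.0008 to 0.08) that holds 0, so both chains were lower by a like small amount.

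Type III collagen, a homotrimer that gives vessel walls their extensibility, showed the largest difference in reads of any collagen. Col3a1 (ENSMUSG00000026043, chromosome 1, 45368383 to 45406551) was the most abundant collagen gene in both libraries, with 36261 reads in the control and 24034 in the depolarized library. Its log2(fold-change) was -0.49 (-0.52 to -0.47), which is 28.9% lower. By FPKM it went from 1914 to 1177, while Col1a1 had 962 and 788. The Col3a1 to Col1a1 ratio therefore moved from 1.99 to 1.49 by FPKM, and the log2(fold-change) of Col3a1 was lower than that of Col1a1 by -0.41 (counting interval -0.45 to -0.37).

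Type V collagen is a minor component that nucleates fibrils and sets their diameter. Col5a1 had 3344 and 2530 reads, a log2(fold-change) of -0.30 (-0.38 to -0.23). Col5a2 had 3216 and 2499 reads, a log2(fold-change) of -0.26 (-0.34 to -0.19). Both chains of the common form of type V were thus lower by a like amount and by more than type I. Col5a3, the chain of a rarer form, had 649 and 317 reads, at a log2(fold-change) of -0.93 (-1.13 to -0.74), so that it was lower than Col5a1 as well (Col5a1 minus Col5a3, 0.63, 0.42 to 0.84). Of the type XI chains, which hold the same place in cartilage, Col11a2 had 67 and 26 reads, at a log2(fold-change) of -1.26 (-1.98 to -0.59), the lowest of the 35. Col11a1 had 44 and 35 reads, with an interval of -0.91 to 0.44.

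Col27a1, a fibrillar chain best known from cartilage, was higher. It had 816 reads in the control and 947 in 60 mM K+, for a log2(fold-change) of 0.32 (0.18 to 0.45), and it was 1 of the 2 collagen genes whose interval lay above 0, beside Col4a2. Scaled by total counts its value was 0.11 with an interval of -0.03 to 0.24, which holds 0, so that neither gene then had an interval above 0. The other fibrillar genes were nearly absent: Col2a1, the cartilage chain, had 1 and 2 reads, and Col24a1 had 0 in both libraries.

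The stretches in front of Col3a1 and Col1a1 are shown because these fiber partners differed in these libraries. They are the 250 bases before the GENCODE vM1 start, on mm9 and the gene's strand, at chr1:45368133-45368382 for Col3a1 and chr11:94797288-94797537 for Col1a1. Capitals mark exact matches, on either strand, to any of 5 motifs. These are TATAAA, which places the start of many genes, the binding site CCAAT of the factor NF-Y, and the binding site GGGCGG of the factor Sp1. The others are TGACGTCA, the cAMP response element bound by the factor CREB that the study is about, and its shorter core TGACG, which lies within it.
Col3a1: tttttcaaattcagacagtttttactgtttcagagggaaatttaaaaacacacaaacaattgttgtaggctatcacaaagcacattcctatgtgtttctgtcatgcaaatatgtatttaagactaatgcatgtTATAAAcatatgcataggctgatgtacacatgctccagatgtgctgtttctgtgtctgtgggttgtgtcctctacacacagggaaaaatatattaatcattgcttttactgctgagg
Col1a1: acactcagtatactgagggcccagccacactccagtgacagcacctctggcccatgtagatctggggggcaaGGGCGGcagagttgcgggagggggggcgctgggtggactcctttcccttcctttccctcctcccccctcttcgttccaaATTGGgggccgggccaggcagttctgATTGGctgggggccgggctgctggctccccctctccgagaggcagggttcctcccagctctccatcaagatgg
The Col3a1 stretch was AT-rich, with 35.2% G and C, and held 1 TATAAA at positions -117 to -112 from the start. The Col1a1 stretch had 64.8% G and C, with 2 CCAAT matches on the opposite strand (read as ATTGG, at -99 to -95 and -73 to -69) and 1 GGGCGG at -178 to -173. Neither held TGACG or TGACGTCA. Before 22380 protein-coding genes, stretches of this length held TATAAA in 12.3%, CCAAT in 35.0%, GGGCGG in 39.6%, TGACG in 19.4% and TGACGTCA in 1.91%, and their median was 54.0% G and C. Positions count from the GENCODE vM1 start, which equaled the RefSeq start for Col3a1 but was not checked for Col1a1. Bases past that start were not searched, so a motif there would be missed. Near matches to the motifs were not searched. These matches are descriptions of letters and no evidence of binding or of what places a start.

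**Figure D2:**
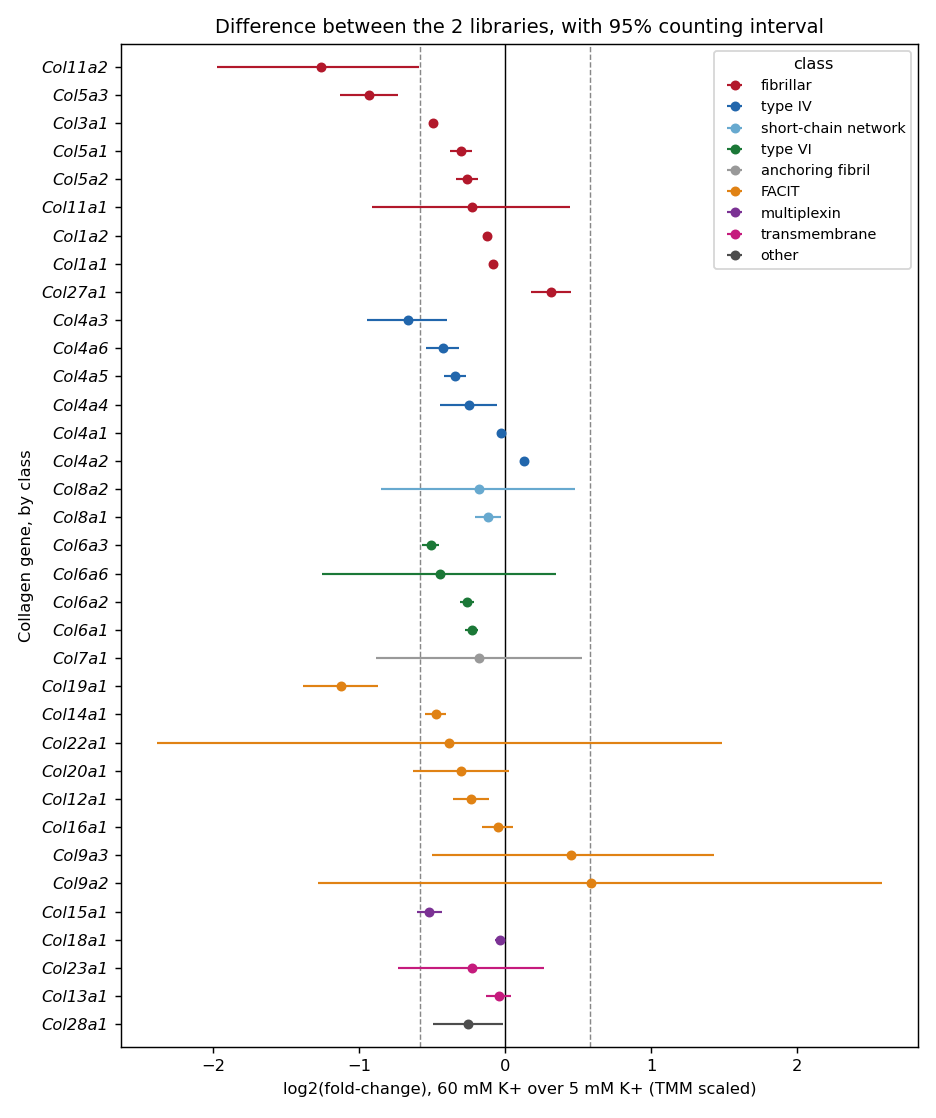
Log2(fold-change) of 60 mM K+ over 5 mM K+ (horizontal axis, TMM scaled) for the 35 collagen genes with at least 10 reads, grouped and colored by class; bars are 95% counting intervals and dashed lines mark 1.5-fold. Most points lie between -0.6 and 0, Col11a2 (-1.26) and Col19a1 (-1.12) lie farthest left, and the wide bars belong to genes with few reads.

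Type IV collagen is the network of the basement membrane, and its 6 genes sit in the genome as head-to-head pairs. It took 24.5% of collagen reads in the control and 27.7% in the depolarized library, and its summed reads were level after TMM scaling (log2(fold-change) -0.0018, -0.02 to 0.02). This sum was carried by the abundant pair. Col4a1 (ENSMUSG00000031502, chromosome 8, 11198423 to 11312826) had 23575 and 21575 reads, a log2(fold-change) of -0.03 (-0.05 to 0.0002). Col4a2 (ENSMUSG00000031503, chromosome 8, 11312805 to 11449287) had 18013 and 18371 reads, a log2(fold-change) of 0.13 (0.10 to 0.16), which turned to -0.08 with total-count scaling. These chains form the common α1α1α2 network found in nearly every basement membrane. Independently of the scaling, Col4a1 was lower relative to Col4a2 by -0.16 (-0.20 to -0.12), with an FPKM ratio of 1.66 in the control and 1.49 in the depolarized library. Their first exons overlap by 22 bases on opposite strands, and the library kit does not mark strand, so reads there cannot be assigned by strand.

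The 4 minor type IV chains were all lower. Col4a5 had 3529 and 2593 reads, a log2(fold-change) of -0.34 (-0.42 to -0.27). Its neighbor Col4a6 on chromosome X, 1308 bases away, had 1517 and 1051 reads, a log2(fold-change) of -0.43 (-0.54 to -0.31). Together these chains make the α5α6 network of smooth muscle basement membranes, and their values did not differ beyond counting error (0.08, -0.05 to 0.22). Col4a3 and Col4a4, known for the glomerular basement membrane and for Alport syndrome when mutated, were rarer. Col4a3 had 300 and 176 reads, a log2(fold-change) of -0.67 (-0.94 to -0.39), and Col4a4 had 488 and 383 reads, at -0.25 (-0.44 to -0.05). This pair did differ in counting terms, by 0.42 (0.09 to 0.75).

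The bases between the starts of Col4a4 and Col4a3 are shown because this short gap is all that separates both genes, at chr1:82583425-82583495 on mm9, plus strand, with the Col4a4 start to its left and the Col4a3 start to its right.
Col4a4 to Col4a3: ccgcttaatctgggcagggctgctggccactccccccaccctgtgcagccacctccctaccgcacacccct
The 71 bases held 69.0% G and C and no exact match to any of the 5 motifs above, so nothing is in capitals. Stretches of that length before all protein-coding genes held TATAAA in 4.81%, CCAAT in 14.4%, GGGCGG in 26.0%, TGACG in 9.19% and TGACGTCA in 1.16%.

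Type VI collagen forms beaded microfibrils from the chains of Col6a1, Col6a2 and Col6a3. Its genes took 12.1% of collagen reads in the control and 11.1% in the depolarized library. Col6a1 had 9529 and 7575 reads, a log2(fold-change) of -0.23 (-0.27 to -0.19). Col6a2, on the same chromosome, had 7899 and 6141 reads, a log2(fold-change) of -0.26 (-0.31 to -0.21). The difference between these short chains was 0.03, with an interval (-0.03 to 0.10) that holds 0. The long chain gene Col6a3 had 5980 and 3917 reads, at a log2(fold-change) of -0.51 (-0.57 to -0.45), 29.7% lower, and it was lower relative to Col6a1 (Col6a1 minus Col6a3, 0.28, 0.21 to 0.35). Of the chains that can take the place of Col6a3, Col6a6 had 35 and 24 reads, Col6a5 had 1 and 3, and Col6a4 had 0 in both.

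Fibril-associated collagens (FACIT) coat the surface of fibrils and link them to other matrix. Their 9 genes took 3.91% and 3.45% of collagen reads and had a summed log2(fold-change) of -0.36 (-0.41 to -0.31), the lowest of the 9 classes. Col14a1, an organizer of type I fibrils, led the class with 4206 and 2818 reads, at a log2(fold-change) of -0.48 (-0.55 to -0.41). Col12a1, which binds fibrils in tissue under load, had 1232 and 977 reads at -0.23 (-0.36 to -0.11). Col16a1 stood at -0.05 (-0.16 to 0.06) with 1501 and 1351 reads, so its interval held 0. Col19a1, a basement membrane zone collagen, had 423 reads in the control and 181 in 60 mM K+, for a log2(fold-change) of -1.12 (-1.38 to -0.87). It was 54.1% lower, the largest relative decrease among collagen genes with at least 200 reads. Col20a1 had 181 and 137 reads, with an interval of -0.63 to 0.03. The type IX chains of cartilage were scarce: Col9a1 had 2 and 2 reads, Col9a2 had 5 and 7 and Col9a3 had 18 and 23. Col9a2 was the 1 gene past 1.5-fold upward (0.59), with an interval of -1.29 to 2.59 that spans both directions, and Col22a1, with 7 and 5 reads, had one of -2.38 to 1.49.

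Multiplexins are basement membrane collagens that carry heparan or chondroitin sulfate chains and release endostatin-like fragments. They took 12.6% of collagen reads in the control and 13.4% in the depolarized library. Col18a1, the endostatin precursor, had 21442 and 19467 reads, a log2(fold-change) of -0.04 (-0.07 to -0.01). Col15a1, which bridges basement membranes to the fibrils below, had 2999 and 1952 reads, a log2(fold-change) of -0.52 (-0.60 to -0.44), or 30.2% lower. The members of this class thus stood apart from each other, with intervals that do not meet.

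The remaining classes were less abundant. Col8a1, a short-chain network collagen of endothelium and of injured smooth muscle, had 2076 and 1784 reads, at a log2(fold-change) of -0.12 (-0.21 to -0.03). Its partner Col8a2 had 45 and 37 reads, and Col10a1, the growth plate collagen, had 0 in both. Among membrane-spanning collagens, Col13a1, found at cell adhesions, had 2454 and 2219 reads with an interval (-0.13 to 0.04) that holds 0. Col23a1 had 78 and 62 reads, Col17a1, the hemidesmosome collagen of skin, 5 and 1, and Col25a1, a neuronal collagen, 0 and 1. Col28a1, a collagen found around Schwann cells, had 333 and 260 reads, at a log2(fold-change) of -0.26 (-0.50 to -0.02). The anchoring fibril gene Col7a1 had 40 and 33 reads, with an interval of -0.89 to 0.53. Col26a1 had 1 read in each library.

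Of the 9 genes under 10 reads, Col17a1 came nearest with 6 reads, and Col9a2 and Col22a1 passed with 12 each. A count of 0 allows up to 3 reads per library, which is 0.266 CPM, the count relative to the TMM-scaled library, in the control and 0.286 in the depolarized library, for counting error only. Exons of 9 collagen genes overlap an exon of another annotated gene, among them Col1a1, Col4a1, Col4a2, Col5a1 and Col15a1. Without these genes the collagen median was -0.26.

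The 6 genes with most reads, Col3a1, Col4a1, Col1a2, Col18a1, Col4a2 and Col1a1, held 72.6% of collagen reads in the control and 74.9% in the depolarized library. Within them Col3a1 went from 18.7% (95% exact binomial interval 18.5 to 18.9) to 15.1% (14.9 to 15.2). Col4a2 went from 9.29% (9.17 to 9.42) to 11.5% (11.4 to 11.7), and Col4a1 from 12.2% to 13.5%. These shares do not depend on how the libraries were scaled. In the control library, FPKM ranked the genes Col3a1 (1914), Col4a1 (1051), Col1a2 (981), Col1a1 (962), Col4a2 (634) and Col18a1 (607), and without replicates the order of neighbors such as Col1a2 and Col1a1 is uncertain. The gene lengths behind the deposited FPKM were short, with a median of 0.531 of the longest annotated transcript over the 35 collagen genes. Per kilobase of that transcript, Col1a2 (4400 reads per kilobase) came before Col4a1 (3564), with Col3a1 still first (6517).

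**Figure D3:**
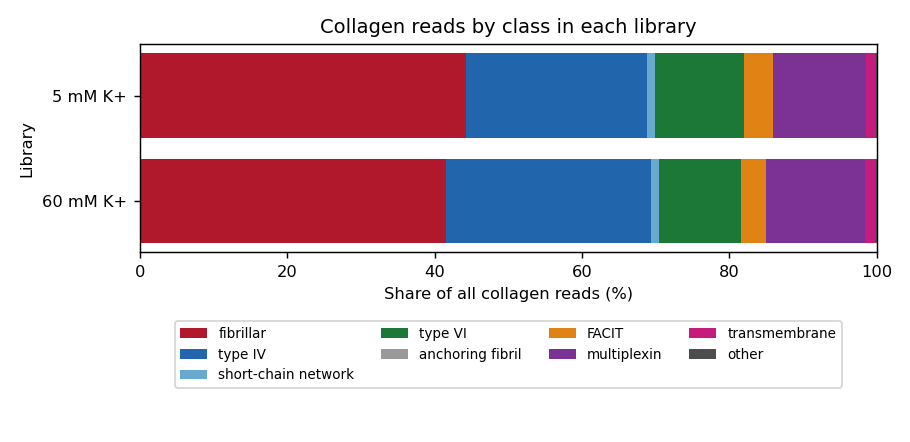
Share of all collagen reads (horizontal axis, percent) by class, 1 bar per library. Fibrillar collagens cover 44.3% in 5 mM K+ and 41.6% in 60 mM K+, and type IV collagens 24.5% and 27.7%.

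The genes that fold, modify, secrete and cross-link collagen lay on both sides of 0. Of 34 listed genes, 33 were matched and 30 had at least 10 reads. Their median log2(fold-change) was 0.06, with 13 below and 17 above 0, and 0 were lower and 1 was higher by more than 1.5-fold, where 13.1% and 11.9% of all genes were. Most of the 30 had at least 200 reads, a depth at which only 3.54% of genes were lower and 8.41% higher by that much. Counting intervals lay below 0 for 7 of the 30 and above 0 for 10, where 20.3% and 25.0% of all genes lay, so the list stood near the background. Serpinh1, the collagen chaperone HSP47, had 8156 and 8011 reads, a log2(fold-change) of 0.08 (0.03 to 0.12). P4ha1, a catalytic subunit of prolyl 4-hydroxylase, had 1228 and 1238 reads, at 0.11 (-0.0019 to 0.23). The 1 gene past 1.5-fold was Adamts14, a protease that removes the amino propeptide of fibrillar procollagen, with 310 and 585 reads, at a log2(fold-change) of 1.02 (0.82 to 1.22). The related Adamts2 lay below 0, with 2818 and 2318 reads, at -0.18 (-0.26 to -0.10). Adamts3, with 14 and 10 reads, was at -0.38 with an interval (-1.72 to 0.89) that holds 0. Lox, the lysyl oxidase that starts cross-linking, had 2976 and 3949 reads, at 0.51 (0.44 to 0.58). Scaling by total counts, with its shift of -0.21, would put the median, Serpinh1 and P4ha1 below 0 and leave Lox and Adamts14 above it.

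With TMM scaling, collagen-binding proteoglycans and receptors lay mostly below 0 as single genes but not in sum. All 16 listed genes had at least 10 reads, with a median log2(fold-change) of -0.17, 12 below and 4 above 0 (50.4% of all genes lay below), and 0 past 1.5-fold in either direction (13.1% lower and 11.9% higher over all genes). Most of the 16 had at least 200 reads, a depth at which only 3.54% of genes were lower and 8.41% higher by that much. Counting intervals lay below 0 for 9 of the 16 and above 0 for 3, where 20.3% and 25.0% of all genes lay. The summed reads of the 16, 106725 and 101422, had a log2(fold-change) of 0.03. The members with most reads, Bgn (biglycan, 43169 and 42634 reads, 0.08) and Itgb1 (the integrin β1 chain, 24005 and 25478 reads, 0.19), were named after their values were seen and lay above 0. Dcn, decorin, which binds fibrils and limits their width, had 15129 and 13424 reads, a log2(fold-change) of -0.07 (-0.10 to -0.04). The range ran from -0.51 to 0.20. Scaling by total counts, with its shift of -0.21, would put the sum, Bgn and Itgb1 below 0 as well.

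**Figure D4:**
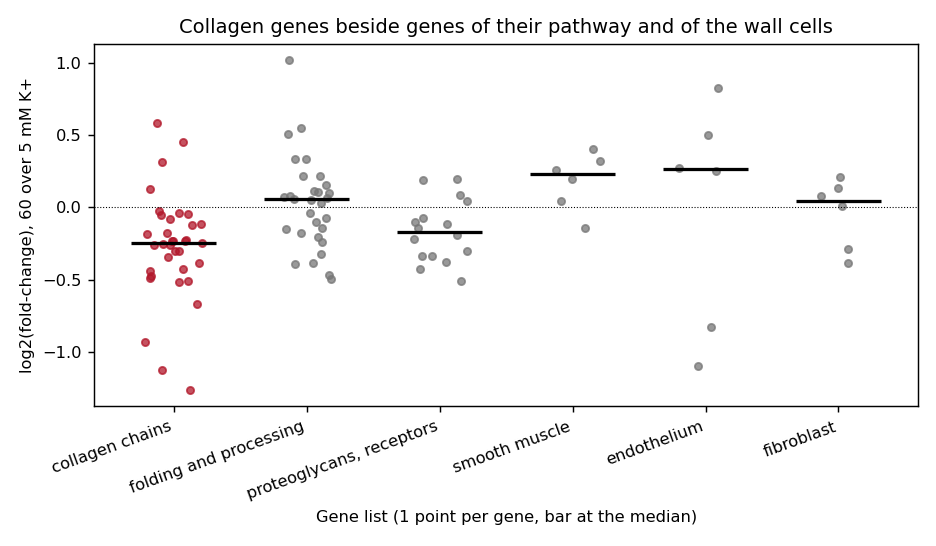
Log2(fold-change) of 60 mM K+ over 5 mM K+ (vertical axis, TMM scaled) for each gene with at least 10 reads, by list (horizontal axis), with a bar at the median; horizontal scatter within a list carries no meaning. The collagen chains have a median of -0.25, their processing genes 0.06, smooth muscle markers 0.23, endothelial markers 0.26 and fibroblast markers 0.05.

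Markers of the cells in the wall differed too, and in bulk tissue fewer cells of a type and less RNA per cell cannot be told apart. The 6 fibroblast markers had 19385 reads in the control and 17223 in the depolarized library, with a median log2(fold-change) of 0.05 and a summed one of -0.07. Dpt (-0.38) and Pdgfra (-0.29) lay below 0, and Pi16, Dpep1, Serpinf1 and Clec3b lay between 0.01 and 0.21. The 6 smooth muscle markers, with 402904 and 414842 reads, had 5 values above 0 and Smtn at -0.14, and a median of 0.23. The 6 endothelial markers, with 33081 and 41777 reads, had one of 0.26 but went both ways. Cdh5 (0.83), Pecam1 (0.50), Vwf (0.28) and Tek (0.25) lay above 0, whereas Kdr was at -1.10 (168 and 73 reads, interval -1.52 to -0.70) and Emcn, with 21 and 11 reads, at -0.83. Schwann cell markers (4 genes, 1231 and 1058 reads) had a median of -0.27 and macrophage markers (4 genes, 152 and 110 reads) one of -0.43. Adipocyte markers, 4 genes, had 345 and 144 reads, whereas exocrine pancreas markers, 5 genes, had 128 and 415. Of the adipocyte markers, Adipoq, Plin1 and Cidec lay below 0, and Lep, with 1 and 9 reads, lay above it. Mesothelial tissue was close to absent, with 4 of 5 markers at 0 reads and Krt19 at 0 and 2. These marker values are TMM scaled. Scaling by total counts, with its shift of -0.21, would put the fibroblast median, Acta2 (0.20) and Myh11 (0.05) below 0. The smooth muscle median would then lie just above 0. The part of the cell makeup in the collagen differences was not tested.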

How the data were processed

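RNA-seq was analyzed in 2 libraries of mouse mesenteric artery, 1 per K+ concentration. According to the methods and the submitters' processing notes, poly(A) RNA libraries (NEBNext Ultra) were sequenced commercially and aligned to mm9 with TopHat2 2.0.12; HTSeq 0.6.1 and edgeR 3.0.8 are also named there. The annotation is not given in the sources used here; 22972 of 55573 identifiers are not in GENCODE vM1, whose genes hold 99.09% and 99.15% of reads. The authors deposited raw read counts per gene and FPKM values; the count to FPKM ratio differed between libraries by the same factor, 0.928, for nearly all genes, the inverse of the ratio of total reads (1.077).

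TMM factors came from edgeR 4.0.16 (R 4.3.3); DESeq2 1.42.0 gave median-of-ratios factors. Figures and intervals used Python 3.11.15, scipy 1.17.1 and matplotlib 3.10.9. A count of 0 entered ratios as 0.5. No test was run, since 1 library per condition leaves no residual variation. The scaling and interval code was checked on simulated counts with counting error only and as many genes raised as lowered. That check does not cover variation between arteries. Other settings tried were scaling by total counts, by the upper quartile or by the median of ratios, FPKM with pseudocounts of 0.1 and 1, minimum counts of 1, 50 and 200 reads, and other fold limits; gene overlap, length per longest transcript and intervals with total counts were added after the data were seen. Collagen genes with at least 200 reads or past 1.5-fold with at least 10 were named in full; of the processing and the proteoglycan and receptor lists, genes past 1.5-fold with at least 50 reads (Adamts14), and Serpinh1, P4ha1, Lox and Dcn. Adamts2 and Adamts3 were added after their values were seen. Cell type markers were given by list, with single markers chosen after their values were seen. Genes with fewer reads were given in brief, and sequence stretches were picked after values were seen. The members and lists were chosen with earlier results of these data known.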

Additional observations from a re-analysis of the deposited data

How the results depend on the processing

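No paired analysis was possible because 1 library stood for each condition. Scaling by total counts, which the deposited FPKM also carry, shifts each value by -0.21 by construction, and moves the median of all genes from -0.0047 to -0.21. The collagen median went from -0.25 to -0.46 with total counts, and to -0.44 and -0.40 with FPKM and pseudocounts of 0.1 and 1. By class the medians with total counts were -0.47 for the fibrillar, -0.50 for the type IV, -0.36 for the short-chain, -0.56 for the type VI, -0.38 for the anchoring fibril, -0.48 for the FACIT, -0.49 for the multiplexin, -0.35 for the transmembrane and -0.46 for the remaining collagens. With FPKM and a pseudocount of 0.1 they were -0.47 for the fibrillar, -0.50 for the type IV, -0.35 for the short-chain, -0.50 for the type VI, -0.35 for the anchoring fibril, -0.38 for the FACIT, -0.49 for the multiplexin, -0.34 for the transmembrane and -0.46 for the remaining collagens, and with a pseudocount of 1 they were -0.47 for the fibrillar, -0.47 for the type IV, -0.28 for the short-chain, -0.48 for the multiplexin, -0.27 for the transmembrane and -0.44 for the remaining collagens. Every one of these class medians kept its sign. The multiplexin median was -0.038 without Col15a1, the member with an exon overlap, and the remaining collagens had -0.0771 with a minimum of 1 read, which adds Col26a1.

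Genes lower by more than 1.5-fold numbered 4, compared with 11 with total counts, 9 with FPKM at either pseudocount, 2 at a 2-fold limit, 21 by the counting interval and 26 by the interval with total counts. The 1 gene higher, Col9a2, became 0 under each other scaling, FPKM, minimum counts of 50 and 200 reads, a 2-fold limit or the nearer interval end; 4 genes were higher with a minimum of 1 read and 2 by the counting interval (0 with total counts). Col4a2 changed sign, from 0.13 to -0.0788 with total counts, -0.0788 with FPKM at the pseudocount of 0.1 and -0.0787 at that of 1. Of 175 single-gene values, 106 stayed within their counting interval, 66 did not, and 3 were those of Col4a2. The 6 genes with most reads held 72.6% and 74.9% of collagen reads, 80.3% and 81.6% of collagen FPKM, and 71.1% and 73.0% per kilobase of the longest transcript. With no replicates, these settings show the effect of counting and scaling, not how far arteries differ.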
